A study of Mus musculus with 4 samples.

Results

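The collagen genes were read as a family in mouse bronchial epithelial cells. The cells came from a study of allergic airway inflammation raised by ovalbumin (OVA, a hen egg protein), with control mice included. The family was taken as every gene whose name on the array is Col, a number, the letter a and a number. It held 44 of the 28663 genes on the array, read by 66 of 39429 probes, and the brightest probe stood for each gene. There were 4 groups with 1 array each: challenged cells labelled Pla2g3-/-, control cells labelled Pla2g3-/-, challenged wild-type (Pla2g3+/+) cells and control wild-type cells. The product of Pla2g3, group III phospholipase A2, is secreted and cleaves membrane phospholipids. As labelled, mice were injected with 10 µg OVA and 1.3 mg of alum in 0.2 ml on days 0 and 14. They then breathed an aerosol of 1% OVA for 30 min on each of days 26, 27 and 28, and cells were prepared from the lungs 3 h later. The sources used here state neither the treatment of the control mice nor the strain, age or sex of the animals, and a challenge difference can thus include sensitisation. The RNA on each array was pooled from 4 samples, so the pool hides the spread between animals, and no difference between 2 arrays has a replicate check or a p-value. The error given with such a difference is the scanner's own error for that spot or those spots, which covers neither animals nor hybridisations.

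The targeted gene went against its label. The Pla2g3 probe at chr11:3394109-3394168 (mm9, plus strand) read 4154 and 2023 intensity units in challenged and control cells labelled Pla2g3-/-, against 254 and 239 in challenged and control wild-type cells. On the log2 scale, after scaling of each array, this was 3.90 higher under challenge and 3.19 higher without it. A probe upstream of it gave 4.56 and 2.12. The sources used here do not state which stretch was deleted, so neither probe checks the deletion, and every genotype direction below rests on the label.

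Between 79.2% and 81.9% of spots were well above background on each array, no spot was saturated, and the 75th percentile of the signal, by which each array was scaled, lay between 1808 and 1986. All 11 airway epithelium markers were well above background on the 4 arrays, with a summed level, as multiples of the 75th percentile, of 611 and 684 in challenged and control cells labelled Pla2g3-/-, against 705 and 696 in challenged and control wild-type cells. Markers of other cell types were detected on all 4 arrays too, among them 12 of 12 fibroblast, 9 of 10 endothelial, 6 of 8 smooth muscle and 8 of 8 developing T cell markers. As 22232 of all 28663 genes were detected there as well, such counts alone do not show that these cells were present. Where cell types are mixed, fewer cells of a type and less RNA per cell cannot be told apart.

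A collagen molecule is built of 3 polypeptide chains wound into a triple helix, and each chain repeats a triplet that opens with glycine, the only residue small enough for the helix axis. The chains are modified and folded in the endoplasmic reticulum, trimmed outside the cell, and cross-linked by lysyl oxidases. Fibrillar collagens give the airway wall its tensile strength, network collagens form the sheet beneath the epithelium, and basal epithelial cells are fastened to that sheet by a transmembrane and an anchoring collagen. Fibroblasts and smooth muscle cells are the usual sources of the fibrillar chains, whereas epithelial cells make part of the basement membrane. The glycine repeat can be read directly in some of the probes on the array. A search for at least 4 GGN codons spaced 9 bases apart found 4 of the 66 collagen probes (6.06%), against 39 of all 39429 probes (0.0989%). The Col25a1 probe is the one used for its gene, and the other 3 are extra probes of theirs. They are shown because the repeat is what makes these genes a family, with each glycine codon of the run in capitals, 5′ to 3′, on the mm9 build. The positions are chr4:47283786-47283845 for Col15a1, chr3:130270497-130270556 for Col25a1, chr4:129756457-129756516 for Col16a1 and chr15:55347733-55347792 for Col14a1, all on the plus strand.
Col15a1: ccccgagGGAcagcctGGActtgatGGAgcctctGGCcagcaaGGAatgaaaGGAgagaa
Col25a1: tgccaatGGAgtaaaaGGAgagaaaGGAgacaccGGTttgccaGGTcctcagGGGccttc
Col16a1: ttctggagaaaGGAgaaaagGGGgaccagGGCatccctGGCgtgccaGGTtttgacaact
Col14a1: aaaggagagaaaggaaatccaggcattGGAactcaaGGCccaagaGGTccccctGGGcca

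Of the 44 collagen genes, 34 were well above background on all 4 arrays and 3 on none. The 3 were Col11a1 and Col24a1, which encode fibrillar chains of cartilage and bone, and Col28a1, a collagen of peripheral nerve. The remaining 7 were detected on some arrays only. Col22a1, a collagen of tissue junctions, was missed on the control array labelled Pla2g3-/- alone. Col4a3, a chain of alveolar and glomerular basement membranes, was detected on the 2 wild-type arrays and Col6a6 on the 2 control arrays. Col6a5, Col9a3 and Col13a1 were detected on the challenged array labelled Pla2g3-/- alone, and Col10a1 on the control array labelled Pla2g3-/- alone. By comparison, 22232 of all genes were detected on every array and 4115 on none. Per array, 38 and 36 collagen genes were detected in challenged and control cells labelled Pla2g3-/-, against 36 and 37 in challenged and control wild-type cells. Over all genes, these counts were 22898 and 23374 against 23667 and 23508. How many of all genes were detected on 1 array alone was not counted. Where a gene was detected on 1 of 2 arrays, its difference is a lower bound, given as "at least". It has no value if the detected signal did not exceed the lowest signal detected on the other array, as for Col4a3 under challenge. Signals below are in intensity units before scaling, and every difference is taken after scaling, as log2 of challenged over control or of the Pla2g3-/- label over wild type.

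After challenge, cells labelled Pla2g3-/- had Col13a1 and Col27a1 at least 2-fold higher and Col2a1 and Col10a1 at least 2-fold lower than their control, among 39 collagen genes with a value. Among all genes with a value, 3.87% passed 2-fold in the higher and 3.42% in the lower direction, so counts of 2 are near the background. The median difference was 0.09 over the collagen genes and -0.06 over all genes. In wild-type cells no collagen gene of 37 differed 2-fold in either direction after challenge, against 1.81% of all genes higher and 1.68% lower, with medians of -0.02 and -0.03. Of the 34 genes detected everywhere, 13 were higher and 12 lower after challenge in both genotypes, 5 were higher in cells labelled Pla2g3-/- and lower in wild type, and 4 were the other way round. The same 4 counts over all 22232 genes detected everywhere were 5847, 8539, 3591 and 4255. Across these 34 genes the 2 challenge differences correlated with r = 0.04 (Pearson) and rho = 0.45 (Spearman), against r = 0.41 and rho = 0.38 across 22232 genes. These are correlations across genes on the same 4 arrays, and genes are not independent replicates.

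**Figure D1:**
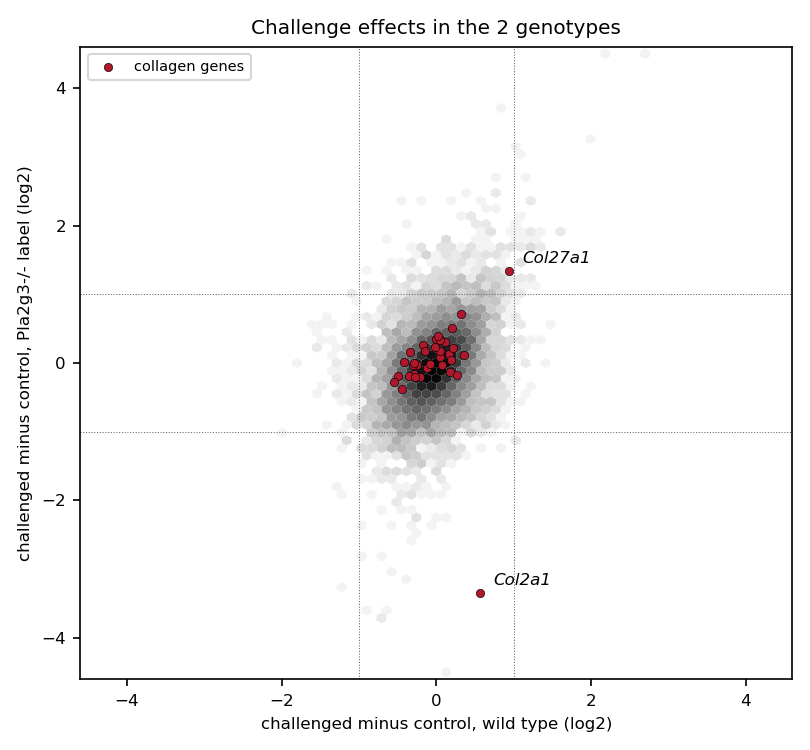
Challenge differences in cells labelled Pla2g3-/- (vertical axis, log2) and in wild-type cells (horizontal axis, log2) for genes above background on all 4 arrays, with collagen genes in red and all 22232 genes in grey, darker where more genes fall and drawn at the edge of the grey field where they lie beyond it; dotted lines mark 2-fold. Most collagen genes sit near the centre, Col27a1 was higher in both (1.34 and 0.95) and Col2a1 lay apart (-3.35 and 0.57).

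Between genotypes under challenge, Col9a3 and Col13a1 were at least 2-fold higher in cells labelled Pla2g3-/- and none was 2-fold lower, of 38 collagen genes, against 3.84% of all genes higher and 2.48% lower. The medians were 0.06 for collagen genes and -0.05 for all genes. Without challenge, Col2a1 and Col10a1 were at least 2-fold higher in cells labelled Pla2g3-/- and none of 38 was 2-fold lower, against 3.19% and 1.8% of all genes. Here 27 of the 38 collagen genes lay below 0, with a median of -0.21, while 12891 of 23947 genes did so in all, with a median of -0.03. The collagen median depended on the processing, at -0.07 with normexp background correction and -0.08 with the mean of all probes of a gene. The challenge difference in cells labelled Pla2g3-/- minus that in wild type was at least 2-fold for Col2a1 alone, in the lower direction, and for none of 34 in the higher direction. Over all genes, 2.81% were higher and 2.7% lower by that much, and the medians were 0.18 for collagen genes (0.05 with normexp correction) and -0.03 for all genes. The challenge comparison in cells labelled Pla2g3-/- and the genotype comparison without challenge share the control array labelled Pla2g3-/-. That array was the lowest of the 4 for 14 of the 34 collagen genes detected everywhere, and the wild-type control array the highest for 12. Over all genes, those shares were 24.6% and 29.5%.

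**Figure D2:**
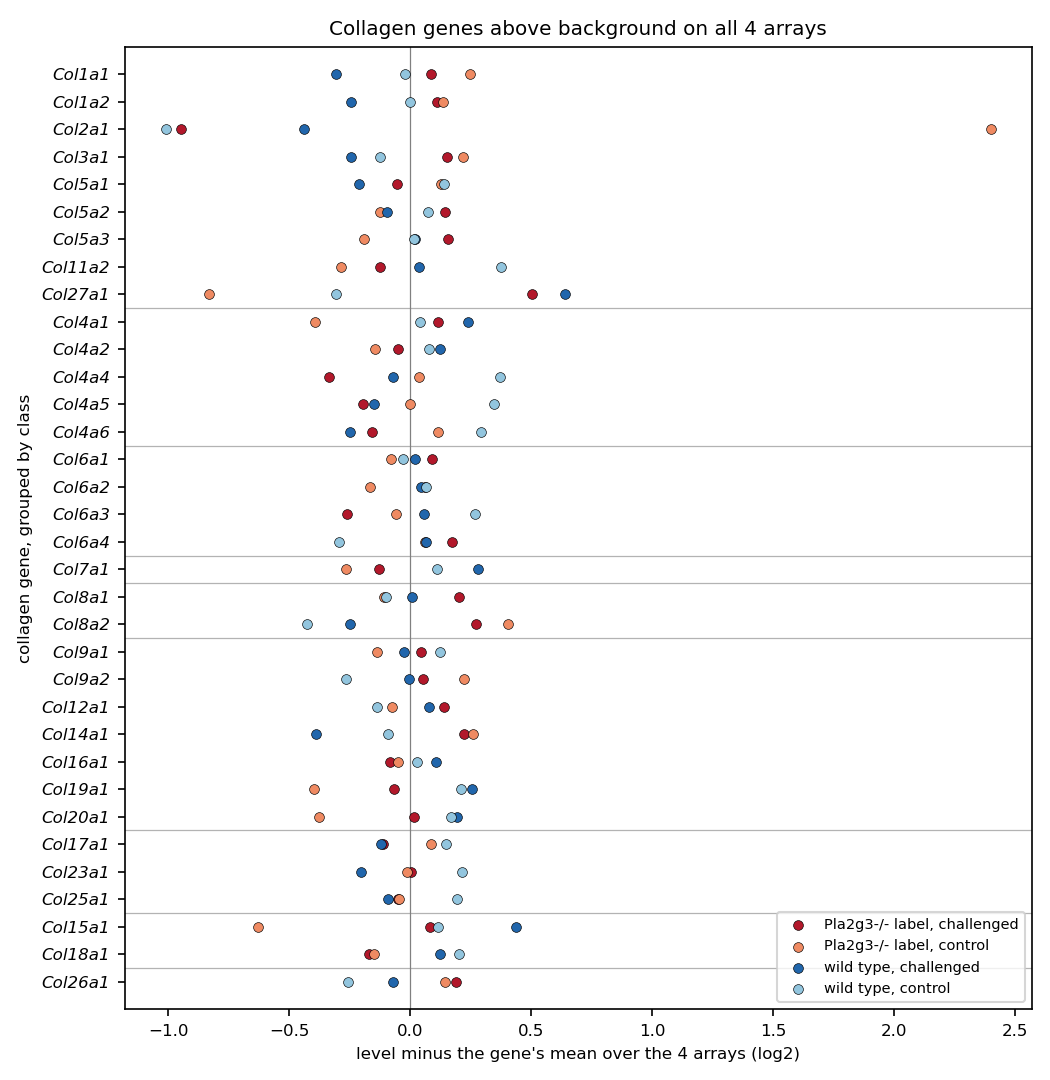
Level on each array minus the gene's mean over the 4 arrays (horizontal axis, log2) for the 34 collagen genes above background everywhere, grouped by class down the page; each point is 1 array. Col2a1 stood out on the control array labelled Pla2g3-/-, and Col27a1 was higher on both challenged arrays than on both control arrays.

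The main fibrils of the airway wall are made of type I collagen, from the chains Col1a1 and Col1a2, with type III collagen, from Col3a1. Col1a1 read 1967 and 2040 units in challenged and control cells labelled Pla2g3-/-, against 1368 and 1832 in challenged and control wild-type cells. Col1a2 read 6207 and 5852 against 4424 and 5754, and Col3a1 read 3732 and 3621 against 2586 and 3087, in the same order of groups. All 3 were lowest in challenged wild-type cells. After scaling they were 0.36 to 0.40 higher in challenged cells labelled Pla2g3-/- than in challenged wild-type cells, and 0.14 to 0.34 higher without challenge, with a scanner error of 0.20 each. The challenge differences were small, between -0.16 and -0.02 in cells labelled Pla2g3-/- and between -0.29 and -0.12 in wild type. None of these reached 2-fold, and none was beyond 2 scanner errors. Fibroblast markers, Thy1 included, leaned the same way between genotypes, with 10 of 12 above 0 under challenge (median 0.17) and 10 of 12 without it (median 0.16). Over all genes, 9500 of 23850 were above 0 under challenge and 11056 of 23947 without it. The summed level of the fibroblast markers without Thy1, which mouse T cells also express, was 25.2 and 30.7 in challenged and control cells labelled Pla2g3-/-, against 23.1 and 28.5 in challenged and control wild-type cells. Smooth muscle markers did not lean that way: 3 of the 7 with a value were above 0 under challenge (median -0.13) and 2 of 7 without it (median -0.31). The part of either list in the result was not tested.

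The upstream sequence of Col1a2 is shown as that of a main fibril gene, from RefSeq (GRCm38.p6, chr6:4505368-4505617, plus strand), with CCAAT or its complement ATTGG and GGGCGG or its complement CCGCCC in capitals. These are the classical CCAAT and GC boxes.
Col1a2: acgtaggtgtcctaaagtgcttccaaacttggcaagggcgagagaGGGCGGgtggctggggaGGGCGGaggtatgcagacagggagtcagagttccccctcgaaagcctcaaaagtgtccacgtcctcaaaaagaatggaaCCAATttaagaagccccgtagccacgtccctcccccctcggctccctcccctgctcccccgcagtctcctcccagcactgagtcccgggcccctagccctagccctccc
Windows of 300 bases (250 before and 50 after an annotated start) were held for 35 of the 44 collagen genes, 38 windows in all. CCAAT on either strand was in 13 of them (34.2%), against 37.4% of all 32851 windows, and GGGCGG was in 23 (60.5%), against 35.7%. Col3a1 held neither motif in its window. The 2 motifs do not overlap in letters, and a match describes the sequence and is no binding site.

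The minor fibrillar chains regulate fibril diameter and initiate fibrils, those of type V on type I fibrils and those of type XI on type II fibrils. After challenge in cells labelled Pla2g3-/-, Col5a1 differed by -0.18, Col5a2 by 0.27, Col5a3 by 0.35 and Col11a2 by 0.16. In wild type Col5a1 differed by -0.35, Col5a2 by -0.17, Col5a3 by 0.00 and Col11a2 by -0.34, and none of the 8 values was beyond 2 scanner errors. Col11a2 read 49.0 and 40.7 units in challenged and control cells labelled Pla2g3-/-, against 50.1 and 69.5 in challenged and control wild-type cells. It was 0.66 lower in control cells labelled Pla2g3-/- than in control wild-type cells, beyond 2 scanner errors of 0.22. With normexp correction, which shrinks differences between dim spots, the difference was -0.22.

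Col27a1, a fibrillar chain best known from cartilage and the developing skeleton, was the only collagen gene higher after challenge by more than 2 scanner errors in both genotypes. It read 380 and 139 units in challenged and control cells labelled Pla2g3-/-, against 381 and 217 in challenged and control wild-type cells. Both challenged arrays were close and both control arrays lay below them, the one labelled Pla2g3-/- the lowest. The challenge difference was 1.34 in cells labelled Pla2g3-/- (2.53-fold) and 0.95 in wild type (1.93-fold), with scanner errors of 0.21 and 0.20. Set against the control array of wild type, challenged cells labelled Pla2g3-/- were 0.81 higher, and challenged wild-type cells were 1.47 higher than the control array labelled Pla2g3-/-, in a comparison added after the data were seen. An additive limma fit of challenge and genotype to the 4 arrays gave an average challenge difference of 1.14 ± 0.16 (SE), with a Benjamini-Hochberg adjusted p of 0.203.

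Col2a1, the chain of type II collagen and the main fibril protein of cartilage, was high on a single array. It read 16.5 units in challenged and 156 in control cells labelled Pla2g3-/-, against 21.4 in challenged and 15.8 in control wild-type cells. In cells labelled Pla2g3-/- it was therefore 10.2-fold lower after challenge (-3.35, scanner error 0.32), and 10.6-fold higher without challenge than in wild type (3.41, scanner error 0.31). In wild type the challenge difference was 0.57 (scanner error 0.34). With normexp background correction these 3 values shrank to -1.47, 1.499 and 0.22, the first and the second still past 2-fold. The call rests on the control array labelled Pla2g3-/-: with the wild-type control array in its place, Col2a1 was 0.06 higher in challenged cells labelled Pla2g3-/-.

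Other collagens of cartilage gave values on 1 array only, or small differences. Col10a1, the short-chain collagen of hypertrophic chondrocytes, read 5.80 units in challenged and 54.5 in control cells labelled Pla2g3-/-, against 1.65 and 1.95 in challenged and control wild-type cells. Only the 54.5 was well above background, so Col10a1 was at least 5.26-fold lower after challenge in cells labelled Pla2g3-/- and at least 6.11-fold higher without challenge than in wild type. With normexp background correction these were -0.98, just short of 2-fold, and 1.14 on the log2 scale. Col9a3, a chain of type IX collagen that decorates type II fibrils, read 17.6 and 6.21 units in challenged and control cells labelled Pla2g3-/-, against 5.33 and 5.17 in challenged and control wild-type cells. Only the 17.6 was above background, at least 2.01-fold higher than in challenged wild type and at least 1.85-fold higher than in its own control. That call was lost with normexp correction (0.17) and when each array was scaled on detected probes only (0.9994). Its partner chains behaved otherwise: Col9a2 was 0.49 higher in control cells labelled Pla2g3-/- than in control wild-type cells (scanner error 0.21) and 0.06 higher under challenge. Col9a1 lay between -0.26 and 0.18 in the 4 comparisons.

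Markers of chondrocytes beyond the collagens were higher on balance without challenge in cells labelled Pla2g3-/- than in wild type, with 6 of 8 above 0 (median 0.55). After challenge, 6 of 9 were below 0 in cells labelled Pla2g3-/- (median -0.23) and 6 of 8 in wild type (median -0.15). Over all genes, 13725 of 23739 and 13076 of 24078 were below 0 in these 2 comparisons. Under challenge 7 of 9 were above 0 between genotypes (median 0.57). Over all genes, 9500 of 23850 were above 0 between genotypes under challenge and 11056 of 23947 without it. Of 11, 7 were well above background on all 4 arrays, and Matn3 and Cnmd, which encode a cartilage matrix protein and chondromodulin, were on none. Their summed level was 7.04 and 8.11 in challenged and control cells labelled Pla2g3-/-, against 6.85 and 8.31 in challenged and control wild-type cells, most of it from Chad. Acan, the gene of the cartilage proteoglycan aggrecan, read 61.5 and 87.0 units in challenged and control cells labelled Pla2g3-/-, against 58.2 and 66.5 in challenged and control wild-type cells. Acan was thus lower after challenge in cells labelled Pla2g3-/-, as were 6 of the 9 markers. Sox9, a transcription factor of chondrocytes that airway epithelium also uses in development, read 432 and 163 against 182 and 139 in the same order. Sox9 was 1.30 higher after challenge in cells labelled Pla2g3-/-. In that comparison 2 of the 9 markers were at least 2-fold higher, Sox9 among them, and 1 was at least 2-fold lower. Over all genes, 3.87% were higher and 3.42% lower by that much, so the list had no common direction at 2-fold. The control array labelled Pla2g3-/- also carried developing T cell markers at a summed level of 38.4, against 5.39 on its challenged array and 3.76 and 4.47 on the challenged and control wild-type arrays. The part of either marker list in the Col2a1 and Col10a1 values was not tested.

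**Figure D3:**
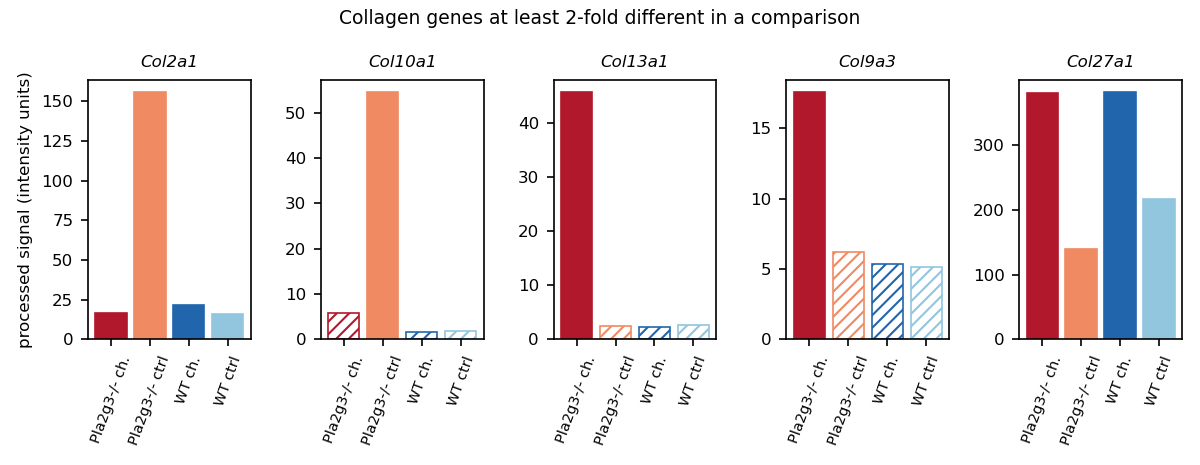
Processed signal (vertical axes, intensity units from 0, a separate scale per gene) on each array for the 5 collagen genes at least 2-fold different in a comparison; ch. is challenged, ctrl is control, WT is wild type, and hatched bars are not well above background. Col2a1, Col10a1, Col13a1 and Col9a3 were each high on 1 array labelled Pla2g3-/-, and Col27a1 was higher on both challenged arrays.

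The type IV chains form the network of basement membranes. Col4a1 and Col4a2 are found in nearly all of them, and Col4a3 to Col4a6 in specialised ones. Col4a5 read 1469 and 1560 units in challenged and control cells labelled Pla2g3-/-, against 1384 and 2146 in challenged and control wild-type cells. Col4a6 read 2738 and 3065 against 2348 and 3756, and Col4a4 read 114 and 137 against 125 and 187, in the same order. In each of the 3, the wild-type control array was the highest. After challenge in wild type they were 0.50, 0.54 and 0.44 lower for Col4a5, Col4a6 and Col4a4, each beyond 2 scanner errors of 0.20 to 0.21. No collagen gene outside type IV was lower by more than 2 scanner errors in that comparison. In either direction, 4 of 36 collagen genes were beyond 2 scanner errors there, against 13.2% of all measured genes. The count is thus no larger than the background. In cells labelled Pla2g3-/- the challenge differences of these genes were -0.20, -0.27 and -0.37, within 2 scanner errors. A dimmer Col4a4 probe gave -0.26 in cells labelled Pla2g3-/- and -0.41 in wild type, whereas a dimmer Col4a6 probe gave -0.16 and 0.03, so the Col4a6 value in wild type depends on the probe. Col4a3 was detected in wild type only, at 9.34 units in challenged and 15.95 in control cells, a challenge difference of -0.64 with a scanner error of 0.39. In cells labelled Pla2g3-/- it read 6.35 and 9.02 units in challenged and control cells, not well above background.

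Col4a1 and Col4a2 did not follow the other type IV chains. Col4a1 read 102 and 66.3 units in challenged and control cells labelled Pla2g3-/-, against 101 and 96.9 in challenged and control wild-type cells, so the control array labelled Pla2g3-/- was the low one. The challenge difference was 0.51 in cells labelled Pla2g3-/- (scanner error 0.21) and 0.20 in wild type, and the genotype difference without challenge was -0.43. With normexp correction Col4a1 was 0.25 higher after challenge in cells labelled Pla2g3-/- and -0.21 between genotypes without challenge. This probe is printed 10 times, and the SD between its spots was 0.09 to 0.14 (log2) on the 4 arrays. Col4a2 read 93.7 and 81.5 units in challenged and control cells labelled Pla2g3-/-, against 96.5 and 103 in challenged and control wild-type cells, with challenge differences of 0.09 and 0.05. Endothelial markers, from cells whose basement membrane holds these 2 chains, had a summed level of 5.68 and 4.07 in challenged and control cells labelled Pla2g3-/-, against 4.90 and 5.50 in challenged and control wild-type cells. Of the 10, 5 were at least 2-fold lower in control cells labelled Pla2g3-/- than in control wild-type cells, against 1.8% of all genes. The part of these markers in the Col4a1 value was not tested.

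Col4a5 and Col4a6 lie head to head on chromosome X, and their annotated starts are 1343 bases apart in GRCm38.p6. Their upstream sequences are shown because the 2 genes face each other and their brightest probes had similar challenge differences. They come from RefSeq at chrX:141475169-141475369 (plus strand) for Col4a5 and chrX:141474096-141474326 (minus strand) for Col4a6. The 2 printed sequences lie at opposite ends of the bases between the starts and do not overlap. Capitals mark the same 2 motifs as above.
Col4a5: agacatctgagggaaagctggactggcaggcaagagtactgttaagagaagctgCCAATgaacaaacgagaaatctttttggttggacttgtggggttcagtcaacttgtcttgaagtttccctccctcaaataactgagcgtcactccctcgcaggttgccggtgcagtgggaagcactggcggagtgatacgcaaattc
Col4a6: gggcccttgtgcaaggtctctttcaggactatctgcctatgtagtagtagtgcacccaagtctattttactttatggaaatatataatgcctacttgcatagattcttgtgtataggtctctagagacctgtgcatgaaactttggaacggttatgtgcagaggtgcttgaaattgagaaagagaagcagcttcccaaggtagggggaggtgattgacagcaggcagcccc
Col4a5 held 1 CCAAT in its printed sequence and Col4a6 none, and neither held GGGCGG there, although the full window of each gene did.

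The type VI chains build beaded filaments close to cells. Col6a1 read 992 and 817 units in challenged and control cells labelled Pla2g3-/-, against 862 and 914 in challenged and control wild-type cells. Col6a2 read 172 and 136 against 156 and 173, and Col6a3 read 153 and 163 against 174 and 222, in the same order. No array stood apart for these 3, and none of their 12 differences was beyond 2 scanner errors. Col6a3 was lower in all 4 comparisons, by 0.20 to 0.33. Col6a4 read 13.94 and 11.95 units in challenged and control cells labelled Pla2g3-/-, against 11.81 and 10.12 in challenged and control wild-type cells. Col6a5 reached 14.1 units in challenged cells labelled Pla2g3-/-, at least 1.49-fold above their control and at least 1.61-fold above challenged wild type. Col6a6 was at least 0.44 lower after challenge in wild type.

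The collagens that fasten basal epithelial cells did not reach 2-fold in any comparison. Col7a1, which forms the anchoring fibrils beneath the epithelium, read 6765 and 5707 units in challenged and control cells labelled Pla2g3-/-, against 8208 and 8009 in challenged and control wild-type cells. It was lower in cells labelled Pla2g3-/- by 0.41 under challenge and 0.37 without it, and 0.14 and 0.17 higher after challenge in cells labelled Pla2g3-/- and wild type. Col17a1, the transmembrane collagen of hemidesmosomes, lay between -0.27 and 0.01 in the 4 comparisons. The other transmembrane collagens, Col23a1 and Col25a1, lay between -0.41 and 0.21. The exception was Col13a1, a transmembrane collagen of cell-matrix contacts, which read 45.6 and 2.41 units in challenged and control cells labelled Pla2g3-/-, against 2.21 and 2.62 in challenged and control wild-type cells. Only the 45.6 was well above background. Col13a1 was thus at least 4.81-fold higher than in its control and at least 5.22-fold higher than in challenged wild type. With normexp correction these were 0.56 and 0.61 on the log2 scale, under 2-fold.

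Col8a2, a short-chain network collagen of vessels and of the membrane beneath the corneal endothelium, was higher in cells labelled Pla2g3-/- in both states. It read 718 and 731 units in challenged and control cells labelled Pla2g3-/-, against 458 and 445 in challenged and control wild-type cells. The differences were 0.52 under challenge and 0.83 without it (scanner error 0.20 each), while its dimmer probe gave -0.06 and 0.09. Its partner Col8a1 lay at 0.19 and -0.01. Among the collagens that sit on fibril surfaces, Col14a1, which binds type I fibrils, read 1789 and 1699 units in challenged and control cells labelled Pla2g3-/-, against 1070 and 1443 in challenged and control wild-type cells. It was 0.61 higher under challenge and 0.35 higher without it, and the extra Col14a1 probe printed above gave 0.38 and 0.00. Col19a1 and Col20a1 were 0.61 and 0.55 lower in control cells labelled Pla2g3-/- than in control wild-type cells (-0.10 and -0.44 with normexp correction), and Col12a1 and Col16a1 lay within 0.22 of 0 in all 4 comparisons. Col15a1 and Col18a1, the collagens of the basement membrane zone from which endostatin-type fragments are cut, were lower in cells labelled Pla2g3-/- in both states. The values were -0.36 and -0.30 under challenge and -0.75 and -0.35 without it. With the mean of all probes of a gene, Col15a1 turned to 0.38 under challenge and Col19a1 to 0.39 without it, so these directions depend on dim probes. Col26a1, a secreted protein with collagen repeats, lay between 0.05 and 0.40.

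**Figure D4:**
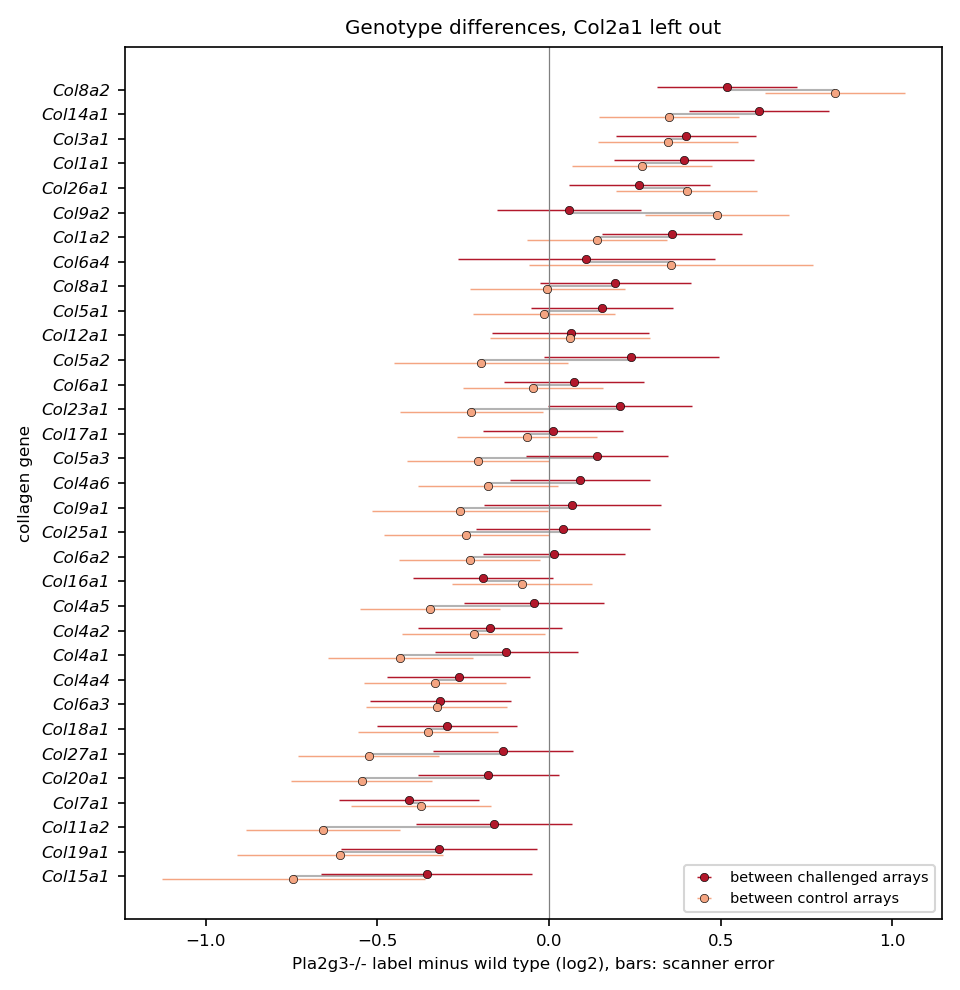
Genotype differences (label Pla2g3-/- minus wild type, horizontal axis, log2) between the challenged arrays (red) and between the control arrays (orange) for the collagen genes above background everywhere except Col2a1; lines through points are 1 scanner error on either side. Col8a2, Col14a1, Col3a1 and Col1a1 were to the right of 0 in both states, and Col11a2, Col7a1, Col18a1 and Col6a3 to the left.

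Differences beyond 2 scanner errors numbered 3 of 34 after challenge in cells labelled Pla2g3-/- (Col2a1, Col4a1, Col27a1), 4 of 36 in wild type, 3 of 35 between genotypes under challenge (Col7a1, Col8a2, Col14a1) and 8 of 35 without challenge. Over all measured genes the shares were 23.2%, 13.2%, 18.6% and 16.6%. The additive limma fit, the only test across arrays, had 1 residual degree of freedom and takes the disagreement of the genotypes as its error. It called none of 37 collagen genes for challenge (3 with an unadjusted p under 0.05: Col27a1, Col4a6 and Col4a5) and 1 of 23642 genes in all (0.00423%), of which 3469 had an unadjusted p under 0.05. For genotype it called none of the 37 (6 with an unadjusted p under 0.05) and 0% of all genes (2783 of them had an unadjusted p under 0.05). The lowest adjusted p for genotype was 0.25, for Col8a2 (0.67 ± 0.14, SE). The others of the 6 were Col7a1, Col14a1, Col3a1, Col1a1 and Col18a1, at 0.258 to 0.395.

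Few genes of the machinery that makes collagen reached 2-fold. Over all genes, 1.68% to 3.87% passed 2-fold in 1 direction of a single comparison, so counts of 0 or 1 in lists of this size are near the background. Of 20 genes of chain modification and folding, such as the prolyl and lysyl hydroxylases, none differed 2-fold after challenge in either genotype, with medians of 0.07 in cells labelled Pla2g3-/- and 0.01 in wild type. Colgalt1, which adds galactose to collagen hydroxylysine, was the only member at least 2-fold different between genotypes. It read 1668 and 1529 units in challenged and control cells labelled Pla2g3-/-, against 3513 and 3753 in challenged and control wild-type cells, 1.21 and 1.18 lower. Of 13 genes of procollagen cleavage and cross-linking, among them Lox and Bmp1, 11 or 12 had a value, and none reached 2-fold in any of the 4 comparisons. Of 18 partners on fibrils, 16 had a value, none reached 2-fold after challenge, and Thbs2 (thrombospondin 2) alone reached it between genotypes, 1.60 higher under challenge.

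Several genes of collagen breakdown were higher after challenge. Of 10, Mmp8, Mmp9, Mmp13 and Timp1 were at least 2-fold higher in cells labelled Pla2g3-/- and Mmp8 and Timp1 in wild type, where Mrc2, the collagen uptake receptor, was 1.41 lower. Over all genes, 3.87% were at least 2-fold higher after challenge in cells labelled Pla2g3-/-, and in wild type 1.81% were higher and 1.68% lower. Mmp8, the neutrophil collagenase, read 391 and 26.4 units in challenged and control cells labelled Pla2g3-/-, against 88.6 and 32.5 in challenged and control wild-type cells, a challenge difference of 3.78 and 1.58. Timp1, an inhibitor of these enzymes, was 2.13 and 1.03 higher, and Mmp9 1.88 and 0.93 higher. Mmp13, another collagenase, was 1.51 higher after challenge in cells labelled Pla2g3-/- and 0.55 lower in wild type. Between genotypes under challenge, Mmp8 (2.01), Mmp9 (1.66) and Timp1 (1.40) were at least 2-fold higher in cells labelled Pla2g3-/-, and without challenge Mmp13 was 1.08 lower. Neutrophil markers had a summed level of 88.9 and 45.8 in challenged and control cells labelled Pla2g3-/-, against 63.2 and 58.2 in challenged and control wild-type cells. Gene by gene, 4 of 5 were at least 2-fold higher after challenge in each genotype, and 1 was slightly lower. The medians were 2.81 in cells labelled Pla2g3-/- and 1.76 in wild type. The part of these markers in the values above was not tested.

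Receptors, basement membrane partners and profibrotic signals had few members past 2-fold, where 1.68% to 3.87% of all genes passed it in 1 direction of a single comparison. Of 9 collagen receptors, the platelet receptor Gp6 alone was at least 2-fold higher, as a bound, after challenge in cells labelled Pla2g3-/- (1.56) and under challenge between genotypes (1.36). Of 15 basement membrane partners of type IV collagen, none differed 2-fold after challenge. Lamb1, a laminin chain, was 1.53 and 1.34 lower in cells labelled Pla2g3-/- than in wild type with and without challenge, and Pxdn, the peroxidase that cross-links type IV collagen, was 1.97 higher under challenge. Of 14 profibrotic signals, Ccn2 (connective tissue growth factor) alone reached 2-fold in the 4 single comparisons. It read 8335 and 11648 units in challenged and control cells labelled Pla2g3-/-, against 19143 and 44574 in challenged and control wild-type cells. The Ccn2 differences were -1.33 and -1.82 between genotypes with and without challenge, and -1.08 after challenge in wild type.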

How the data were processed

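Total RNA of bronchial epithelial cells was measured on 4 one-colour (Cy3) Agilent arrays of 1 slide, 1 per group, after labelling of 200 ng of RNA, and groups were taken from the labels. The scanner files deposited by the authors give the intensity of each spot. Per the file headers, Agilent Feature Extraction 11.5.1.1 subtracted a spatially detrended background and detrended multiplicatively, and probes were placed on mm9. The deposited series matrix holds the same intensity values divided by each array's 75th percentile (44397 features, column medians 0.0850 and 0.0879 for challenged and control cells labelled Pla2g3-/-, 0.0860 and 0.0875 for challenged and control wild type). Position on the slide and group cannot be told apart.

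Here log2 of the deposited processed signal was taken minus log2 of the array's 75th percentile over 43020 non-control spots. Spots marked as outliers were left out (128 to 155 an array), and spots of 1 probe were averaged. For the 399 probes printed 10 times, the SD between spots was 0.07 at the median of each array. Gene names came from the files for collagen genes and for probes without a RefSeq match, and from RefSeq for all others. A RefSeq accession was matched for 28330 of 39429 probes. A bound compares the array that detected a gene with the dim array's own signal or, if higher, the lowest signal detected there. A gene detected on neither array has no value, nor has one whose detected signal did not exceed the signal it is compared with. Differences of at least 2-fold (1 on the log2 scale) were counted. limma 3.58.1 in R 4.3.3 fitted genotype and challenge additively (lmFit, eBayes with a trend) to 23642 genes above background on at least 2 arrays, with Benjamini-Hochberg adjustment at 0.05. On simulated data, 50 genes per size were changed by challenge among 23642. The challenge effect of the fit called 8, 38, 46 and 49 at log2 sizes of 1, 2, 4 and 6, with 11 false calls. The simulated noise followed the fit's own model of gene variance, with no genotype difference and no challenge effect that differed between genotypes. Recovery where the genotypes disagree was thus not tested. Figures used matplotlib 3.10.9.

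Named were every collagen gene at least 2-fold different in a comparison, the chains of types I, III, IV and VI, and at most 4 genes per pathway list with the largest differences of at least 2-fold, beside Mrc2, which was chosen after its values were seen. Other collagen genes are given by value where they help to describe a class. The collagen genes, the pathway lists and the marker lists were chosen with earlier results of these data known. The alternatives were normexp background correction (offset 50), quantile normalization, scaling on detected probes, the mean of all probes of a gene, and, for limma, all genes and no trend. Values of 1 array per group limit the precision throughout.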

Additional observations from a re-analysis of the deposited data

Results flagged for a closer look

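The challenge difference pointed one way in cells labelled Pla2g3-/- and the other way in wild type for 9 of the 34 collagen genes detected on every array. Over all genes detected on every array, 3591 and 4255 of 22232 did so in the 2 directions, a larger share. With 1 array per group these differences between genotypes were not tested. Col2a1 had the largest of the 9, at -3.92 (-3.35 in cells labelled Pla2g3-/- and 0.57 in wild type), and it was the only gene of the 9 whose 2 challenge differences were both beyond 1 scanner error. It rests on the high signal of the control array labelled Pla2g3-/-, and with normexp background correction it was -1.69 (-1.47 and 0.22). The difference was positive for Col11a2 (0.50), Col5a2 (0.44), Col23a1 (0.43), Col9a1 (0.33) and Col6a2 (0.245). It was negative for Col9a2 (-0.43), Col8a2 (-0.31) and Col16a1 (-0.11).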

How the results depend on the processing

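Counts of collagen genes at 2-fold depended on dim spots and on 1 array. With normexp background correction, 1 gene was higher and 1 lower after challenge in cells labelled Pla2g3-/-, and 0 were higher between genotypes under challenge. With scaling on detected probes the last count was 1. Restricting to genes above background on all 4 arrays left 1 higher and 1 lower after challenge in cells labelled Pla2g3-/-, 0 higher between genotypes under challenge and 1 higher without challenge. With the control array of the other genotype in its place, an alternative chosen after seeing the data, 1 was higher and 0 lower after challenge in cells labelled Pla2g3-/-, and 2 were higher and 2 lower in wild type. Col2a1 then turned to 0.063 in cells labelled Pla2g3-/-. For the 5 collagen genes at 2-fold, 63 of 74 values under the other settings for these 4 arrays stayed close, 11 moved, all 11 with normexp, and 0 turned. Of the 63, 16 with the mean of all probes could not change, because each of these genes has 1 probe. Nor could 10 under the restriction to genes above background on all 4 arrays. Over all collagen genes 52 of 910 values turned sign, 24 with normexp and 21 with the mean of all probes. The 910 include 170 values under that restriction, which could not turn. Of the 52, 1 was beyond 2 scanner errors as reported, Col19a1 without challenge (0.39 with the mean of all probes). The limma fit called 0 collagen genes under every alternative run, and 0 to 8 genes in all for challenge and 0 to 43 for genotype. Col11a1, Col24a1 and Col28a1 were above background on no array and have no value, and Col6a5, Col9a3, Col10a1 and Col13a1 on 1 array each, so they have only bounds. No paired analysis was possible because each group had 1 array.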

Other observations

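Probes of the same collagen gene did not always point the same way. Of 10 collagen genes with several measured probes, all probes had the same sign in 6 genes after challenge in cells labelled Pla2g3-/-, in 5 after challenge in wild type, in 5 between genotypes under challenge and in 7 without challenge. The brightest Col16a1 probe gave -0.03 after challenge in cells labelled Pla2g3-/- and -0.19 between genotypes under challenge, while the extra probe over its glycine repeat gave 0.71 and 0.74 at 44.5 units in challenged and 25.3 in control cells labelled Pla2g3-/-. For Col25a1, the chosen probe gave -0.29 after challenge in wild type and another probe 0.42. The dimmer Col9a1 probe was at least 1.14 higher on the log2 scale in control cells labelled Pla2g3-/- than in control wild-type cells, where the brighter probe gave -0.26. It read 3.93 and 19.7 units in challenged and control cells labelled Pla2g3-/-, against 5.32 and 6.51 in challenged and control wild-type cells, and so was high on the same array as Col2a1 and Col10a1.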
